A study of Homo sapiens with 2 samples.

Results

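The MALAT1 and NEAT1 locus is a stretch of human chromosome 11, from position 65350001 to 65550000 (GRCh38), that holds the long noncoding RNA genes MALAT1 and NEAT1 and the neighbouring protein-coding gene FRMD8. It is described here through every called peak of the 2 deposited peak lists that overlapped the window: 38 of 64784 H3K27ac peaks and 47 of 139511 H3K4me1 peaks on chromosomes 1 to 22 and X, or 85 of 204295 in all. Peaks were taken by position alone, but the locus itself was chosen by the summit pileups, folds and backgrounds of these lists, so its values are a description and carry no test. The window edges fell in unmarked DNA. The first H3K27ac peak inside (58 fragments at its summit) lay 4.32 kb from the lower edge and the last one outside (68 fragments) 15.5 kb from it. At the upper edge the last H3K27ac peak inside held 35 fragments and the first outside 21, and the matching H3K4me1 peaks held 33 and 32.

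The cells were C4-2B, which descends from the prostate cancer line LNCaP and grows without androgen, kept for at least 6 months in the antiandrogen enzalutamide. CUT&Tag, in which an antibody leads a transposase to the marked nucleosomes, was run on 100000 cells per library with 14 cycles of PCR. There was 1 library for H3K27ac, a mark of active promoters and enhancers, and 1 for H3K4me1, a mark of enhancers and promoter flanks. Both came from the same resistant cells, with no parental line, replicate or background library among the samples, so nothing below compares resistant with sensitive cells, and no value has a replicate check. As a check of the labelled cell type, all 8 prostate luminal markers had both marks within 1 kb of a gene end, with 106 H3K27ac and 91 H3K4me1 fragments at KLK3, the prostate-specific antigen gene. None of 4 stromal markers had H3K27ac there and 1 had H3K4me1. Of the blood markers, PTPRC had neither mark, SPI1 had 31 H3K27ac and 33 H3K4me1 fragments, and CD3E 14 and 59, and their part in the results was not tested.

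MALAT1 and NEAT1 make 2 of the most abundant RNAs of the nucleus. MALAT1 RNA collects in nuclear speckles, which are stores of splicing factors, and its end is cut to release a small tRNA-like RNA, mascRNA. TALAM1 is transcribed across MALAT1 in the opposite direction. NEAT1 RNA is the scaffold of paraspeckles, bodies that hold RNA-binding proteins such as NONO and SFPQ, and its short and long forms share a start. Both RNAs are well known from studies of prostate cancer. FRMD8 encodes a FERM-domain protein that binds the iRhom proteins and so keeps the ADAM17 sheddase at the cell surface.

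The sequences of 4 starts are shown first, because 3 of them lay under peaks of both marks and the second MALAT1 start under neither. Each sequence runs 5′ to 3′ from the RefSeq promoter table (GRCh38.p14), 250 bases before to 50 after a start. FRMD8, the coding gene among them, is cut at its start. Capitals mark matches, on either strand, to the motifs searched: GGGCGG (SP factors), CCAAT (NF-Y), TGANTCA (AP-1), CACGTG (E-box), TATAAA, and 4 others without a match here. Of 15 genes overlapping the window, 7 matched the table by symbol, and for NEAT1 no sequence is printed.
MALAT1 first start, chr11:65497488-65497787, plus strand: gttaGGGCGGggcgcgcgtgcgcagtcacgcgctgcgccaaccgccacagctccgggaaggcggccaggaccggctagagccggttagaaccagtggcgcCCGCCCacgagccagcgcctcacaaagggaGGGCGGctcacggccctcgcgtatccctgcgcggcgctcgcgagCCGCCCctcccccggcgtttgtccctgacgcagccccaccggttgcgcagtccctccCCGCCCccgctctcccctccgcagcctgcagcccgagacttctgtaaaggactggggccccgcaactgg
MALAT1 second start, chr11:65498795-65499094, plus strand: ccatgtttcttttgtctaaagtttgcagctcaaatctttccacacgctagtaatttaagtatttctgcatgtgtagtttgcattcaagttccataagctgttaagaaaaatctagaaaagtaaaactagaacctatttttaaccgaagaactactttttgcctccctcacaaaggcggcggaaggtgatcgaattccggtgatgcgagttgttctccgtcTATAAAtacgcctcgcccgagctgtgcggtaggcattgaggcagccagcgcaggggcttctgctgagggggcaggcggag
FRMD8 start, chr11:65386387-65386636, plus strand: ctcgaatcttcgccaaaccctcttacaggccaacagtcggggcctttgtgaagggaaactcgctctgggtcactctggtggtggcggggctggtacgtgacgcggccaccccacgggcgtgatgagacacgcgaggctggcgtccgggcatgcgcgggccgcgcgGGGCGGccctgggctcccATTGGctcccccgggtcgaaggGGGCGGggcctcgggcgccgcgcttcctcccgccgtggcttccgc
ENEMAL start, chr11:65477438-65477737, minus strand: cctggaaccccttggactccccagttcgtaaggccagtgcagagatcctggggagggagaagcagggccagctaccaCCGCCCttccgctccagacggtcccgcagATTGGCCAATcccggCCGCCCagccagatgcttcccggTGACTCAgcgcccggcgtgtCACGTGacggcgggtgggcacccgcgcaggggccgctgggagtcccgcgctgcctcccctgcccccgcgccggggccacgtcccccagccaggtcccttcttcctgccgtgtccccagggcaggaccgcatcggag

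The MALAT1 starts differed in sequence and in marks. The window of the first start was 73.7% G and C, held 37 CpG and 5 matches to GGGCGG, and was covered from end to end by a peak of each mark. The second start, at 65499045, had 46.0% G and C and 14 CpG. It held a TATAAA beginning 30 bases before the first transcribed base, and no peak of either mark overlapped its window. The nearest H3K27ac peaks ended 1.09 kb before this start and began 1.43 kb after it. FRMD8 resembled the first, with 72.0% G and C, 38 CpG and 3 matches to GGGCGG, 1 of them beyond the start and so not printed. ENEMAL, a long noncoding RNA gene between NEAT1 and MALAT1, held 2 matches each to GGGCGG and CCAAT and 1 each to TGANTCA and CACGTG. Over 35116 promoters of the table the median was 58.7% G and C and 14 CpG. GGGCGG was found in 45.0% of them, CCAAT in 34.6%, TATAAA in 11.5%, TGANTCA in 7.71% and CACGTG in 7.26%. The motifs TGACGTCA, TGTTTAC, CCGGAAGT and the androgen response element had no match in these 4 windows, and they occur in 1.85%, 3.42%, 4.14% and 0.00285% of promoters.

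By depth, the locus exceeded every tiled window of its length in the H3K27ac list. Depth is given as the summit pileup, the number of fragments stacked at a peak's summit, which was recovered from the deposited fold and p, with exact Poisson 95% intervals that cover counting error only. The 38 H3K27ac peaks held 9 to 540 fragments, with a median of 127, against a median of 13 over the whole list. Their pileups summed to 6630 fragments, and none of 15162 windows of 200 kb tiled along the genome reached this sum (the highest was 6501). The locus was chosen partly by depth and its window lies off this grid, so the rank is a description. Whether the highest tiled window overlapped the locus is not reported here. By covered length the locus stood at rank 5 beside these windows, with 20.22 kb (10.1%) under H3K27ac peaks. For H3K4me1 the 47 peaks held 11 to 268 fragments, with a median of 62 against 18 in the list, and covered 19.4 kb, rank 20 beside the same windows.

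**Figure D1:**
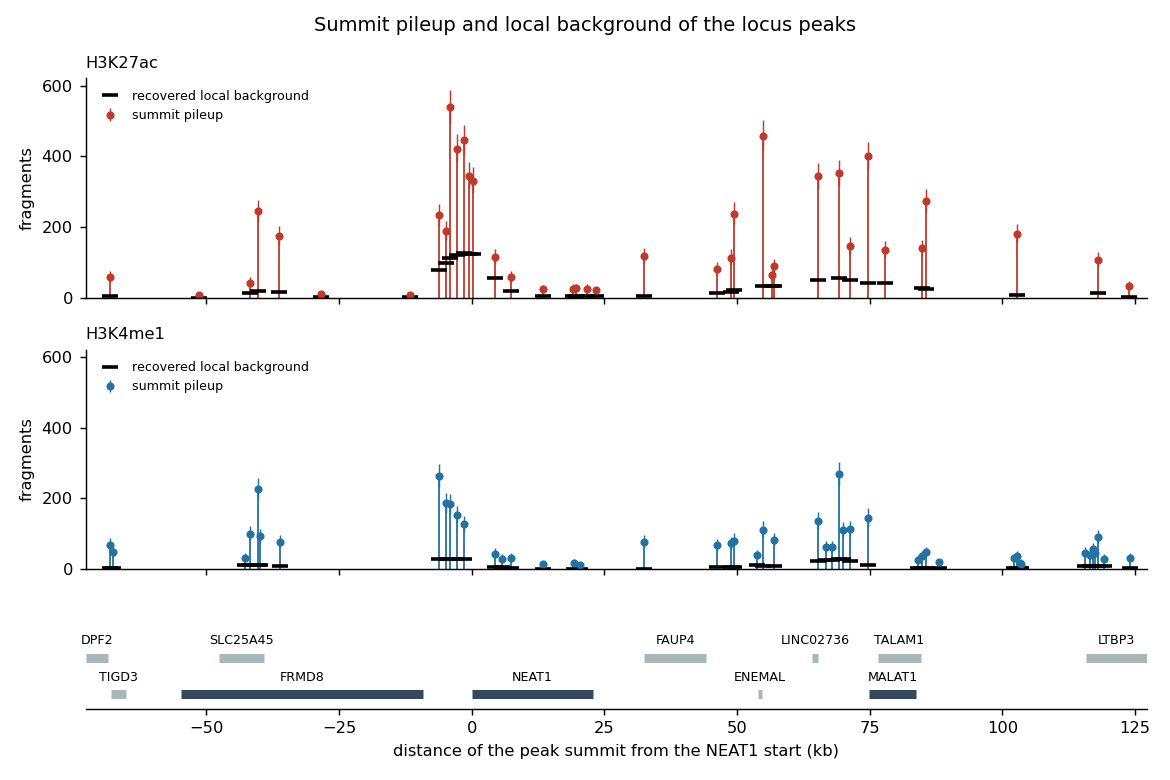
Summit pileup of each peak in the window (points, in fragments, with exact Poisson 95% intervals) and the recovered local background at the same summit (black dashes), against the distance of the summit from the NEAT1 start in kb, for H3K27ac above and H3K4me1 below. Spans of the genes named here are drawn under the plots. The highest H3K27ac points, up to 540 fragments, and the highest backgrounds, up to 125.8 fragments, stand just upstream of NEAT1.

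NEAT1 carried its deepest H3K27ac at and upstream of its start. Within 7.1 kb, from 65416472 to 65423569, lay 7 H3K27ac peaks with 37.8% of the summed pileup of the window. In order towards the gene they held 233, 189, 540, 420, 445, 345 and 331 fragments. The peak of 540 fragments (495 to 588) had its summit 4.09 kb before the start and was the second deepest of all 64784. The peak of 445 (405 to 488), 1.39 kb before the start, was at rank 6, and the peak of 420 (381 to 462), 2.72 kb before it, at rank 10. The peak over the start itself, from 65422720 to 65423569, held 331 fragments (296 to 369).

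Along the transcript, from 65422798 to 65445540, H3K27ac was much shallower. A peak with its summit 4.38 kb into the gene held 115 fragments (94.9 to 138), the next, at 7.41 kb, 59 (44.9 to 76.1), and the one at 13.39 kb 25 (16.2 to 36.9). These intervals do not overlap each other. Towards the gene's end 3 more peaks held 26, 27 and 26 fragments, and the last of them covered the whole of MIR612, a microRNA gene inside NEAT1. The depth of H3K27ac thus fell by steps over the first 13.39 kb, and from there on the gene held peaks of 25 to 27 fragments.

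H3K4me1 shared the upstream cluster, but no peak of it was called at the NEAT1 start. Its 5 peaks between FRMD8 and NEAT1 held 262, 186, 184, 153 and 127 fragments in order towards the gene, so the mark went from 262 (231 to 296) at 6.25 kb before the start to 127 (106 to 151) at 1.43 kb before it, while the 3 deepest H3K27ac summits lay within the last 4.09 kb. No H3K4me1 peak was called over 5.62 kb around the start, from 1.35 kb before it to 4.26 kb after it, under 2 H3K27ac peaks of 345 and 331 fragments. The H3K4me1 pileup in this stretch is not known. The nearest H3K4me1 peak before it stood over a background of 30.15 fragments, and signal too low to be called over such a background would be missed. Of the 62 H3K27ac peaks of at least 331 fragments in the list, 2 lacked H3K4me1 (3.23%), and both were these. That limit is the depth of the shallower of the pair, so the pair belongs to the class by its choice and the share is a description. Inside NEAT1, 6 H3K4me1 peaks held 44, 29, 33, 14, 18 and 11 fragments in order along the gene. Peaks of H3K27ac covered 11.9% of NEAT1 and those of H3K4me1 8.79%.

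**Figure D2:**
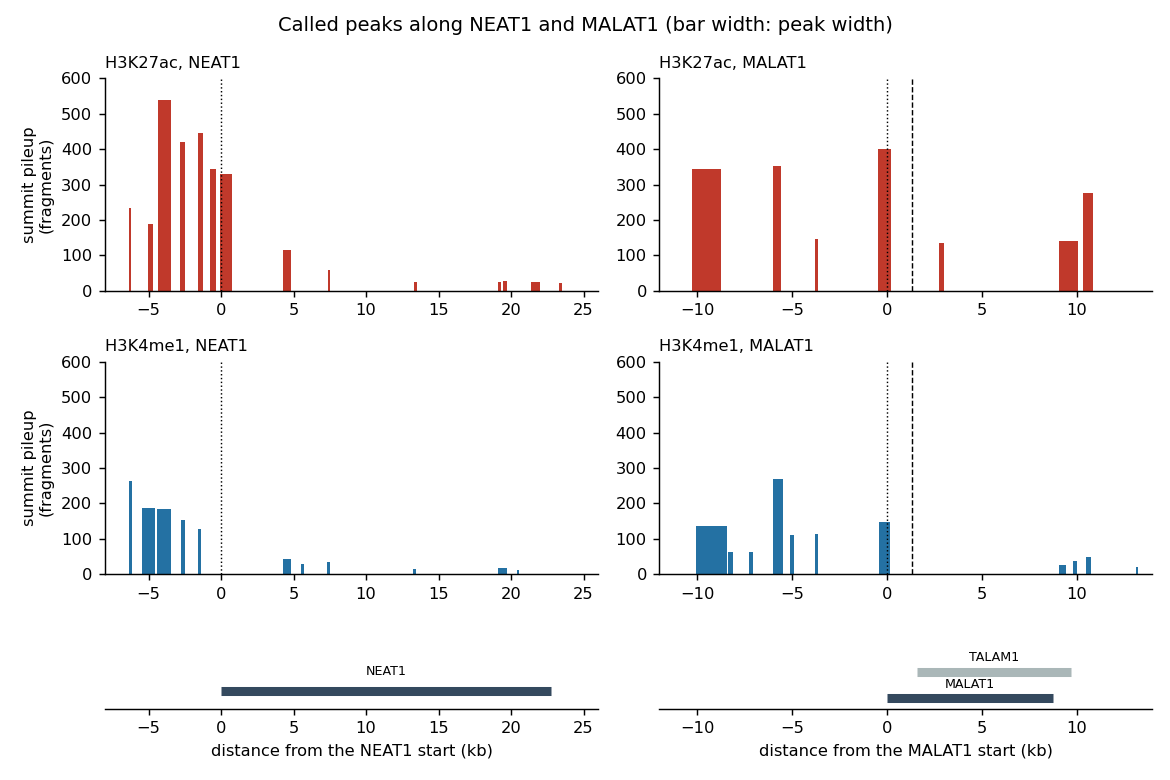
Called peaks along NEAT1 (left) and MALAT1 (right), with distance from the gene's start in kb on the horizontal axis and summit pileup in fragments as bar height, for H3K27ac (top) and H3K4me1 (middle). The dotted line is the start, the dashed line the second MALAT1 start, and bar width is the width of the called peak. H3K4me1 has no bar at the NEAT1 start or in the rest of MALAT1 behind its first start.

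MALAT1 carried both marks at its first start, and along its length H3K27ac had 1 further peak and H3K4me1 none. The H3K27ac peak there, from 65497291 to 65497959, held 400 fragments (362 to 441) with its summit 245 bp before the start, at rank 17 of the list. The H3K4me1 peak, from 65497321 to 65497911, held 146 fragments (123 to 172) with its summit 251 bp before the start. Of 18177 long noncoding RNA genes, 6 had a deeper H3K27ac peak within 1 kb of an end, and 12 of 19974 protein-coding genes did.

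Behind that start the 2 marks parted. Over 8.91 kb, from 65497912 to 65506820, no H3K4me1 peak was called, which takes in the second start and the rest of MALAT1. H3K27ac had 1 peak in this stretch that began and ended in it, 2.94 kb into the gene, with 135 fragments (113 to 160). Peaks of H3K27ac covered 5.66% of the gene and those of H3K4me1 1.98%. In the list, 19 of 2198 H3K27ac peaks of at least 135 fragments lacked H3K4me1 (0.864%), and 3 of those 19 were this peak and the pair at the NEAT1 start. This limit, too, was taken from the peak described. No called peak is not the same as no mark: the pileup between peaks is not in the lists.

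Beyond the end of MALAT1, H3K27ac began 0.289 kb past the gene and lay over the start of TALAM1. A peak from 65506805 to 65507802 covered that start and held 140 fragments (118 to 165), and the next, from 65508093 to 65508591, held 275 (243 to 309). H3K4me1 had 4 peaks there, of 27, 37, 48 and 19 fragments, and the last of them, from 65510854 to 65510962, lay clear of H3K27ac. Peaks have no strand, so one cannot be given to MALAT1 or to TALAM1 where they overlap. The span of MASCRNA, the gene of mascRNA, held no peak of either mark.

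The 52.2 kb between NEAT1 and MALAT1 held 12 H3K27ac and 14 H3K4me1 summits. The deepest H3K27ac peak there, from 65476441 to 65478020, held 458 fragments (417 to 502), at rank 4 of the list, and covered the whole of ENEMAL and its printed start window. Its H3K4me1 counterpart held 112 fragments (92.2 to 135). LINC02736, another long noncoding RNA gene, had 344 (309 to 382) and 136 (114 to 161) fragments, and a site 5.72 kb before MALAT1 had 352 (316 to 391) and 268 (237 to 302), the deepest H3K4me1 summit of the window. The start of the pseudogene FAUP4 had 119 (98.6 to 142) and 77 (60.8 to 96.2). Between these stood shallower peaks, down to 21 fragments for H3K27ac and 39 for H3K4me1. Around the deepest H3K4me1 summit stood 3 H3K4me1 peaks that overlapped no called H3K27ac peak. They held 63, 62 and 110 fragments, at 8.20, 7.10 and 4.96 kb before MALAT1, with low folds of 2.30, 2.24 and 3.66. The H3K27ac peaks on either side stood over backgrounds of 49.77 to 55.64 fragments, and H3K27ac too low to be called over such backgrounds would be missed.

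At the FRMD8 start the H3K27ac peak, from 65386249 to 65387023, held 175 fragments (150 to 203) and the H3K4me1 peak 78 (61.7 to 97.3). Neither mark was within 1 kb of the ends of FRMD8 as the gene table lists it (65368026 to 65413525), because this start lies inside that span. The deepest peaks inside the span, 245 H3K27ac fragments (215 to 278) and 227 H3K4me1 fragments (198 to 259), lay at the starts of SLC25A45, a mitochondrial carrier gene that overlaps FRMD8 on the other strand. Along FRMD8 outside SLC25A45 and the start, the 3 H3K27ac peaks held 9, 11 and 9 fragments, and none overlapped H3K4me1. LTBP3, which encodes a latent TGF-beta binding protein, had 107 H3K27ac fragments (87.7 to 129) at its far end. TIGD3, a gene derived from a transposon, had 58 H3K27ac and 69 H3K4me1 fragments.

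Fold enrichment and depth ranked these peaks very differently. The deposited fold is the summit signal over a local background, and that background was high in the locus. A whole number of fragments matched both deposited values at every peak, and with it came the background: 1.155 to 125.8 fragments at the H3K27ac peaks, with a median of 22.22, against a median of 1.052 in the list. The deepest peak, of 540 fragments, stood over a background of 113.7 and so had a fold of 4.72, at percentile 30.5 of all folds. The peak of 445 fragments, over 125.8, had a fold of 3.52 (percentile 8.48), and the peak over the NEAT1 start, over 123.2, a fold of 2.67 (percentile 0.561). For H3K4me1 the peak of 262 fragments 6.25 kb before NEAT1 stood over 27.56 with a fold of 9.21, and the peak of 127 over 30.15 with a fold of 4.11. The MALAT1 start, with 400 fragments over 42.24, had a fold of 9.27 (percentile 72.8).

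The contrast was sharpest where peaks crowd together. The peak of 189 fragments (163 to 218) 4.84 kb before NEAT1 had a fold of 1.88, with 3 of the 64784 folds below it. Beside ENEMAL, a peak of 65 fragments (50.2 to 82.8) over a background of 33.52 had a fold of 1.91. In the window, the highest fold, 22.99 for H3K27ac and 28.42 for H3K4me1, belonged to the lone peaks at FAUP4, with 119 and 77 fragments over backgrounds of 4.22 and 1.744. By fold the best locus peak was at rank 558 for H3K27ac and 848 for H3K4me1. By pileup, 4 of the 10 deepest H3K27ac peaks of the list and 9 of the 100 deepest lay in the window, but none of the 100 deepest H3K4me1 peaks.

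Counted over the window, 24 of 38 H3K27ac peaks had a pileup above the list's 90th percentile (81 fragments), where the list has 9.89%. Of all H3K27ac peaks, 0.602% joined such a pileup with a fold below the list's median of 6.055, and 12 of the 38 did so. For H3K4me1, 24 of 47 peaks exceeded the 90th percentile of 59 fragments (9.73% in the list), and 10 also had a fold under the median of 7.001 (1.48%). These 2 classes were set after the values were seen, and depth had entered the choice of the locus. The rank correlation of pileup with fold was 0.146 over the 38 H3K27ac peaks and 0.725 over the list, and 0.291 over the 47 H3K4me1 peaks and 0.595 over the list. Peaks of 1 library share its depth and, when close together, their background.

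**Figure D3:**
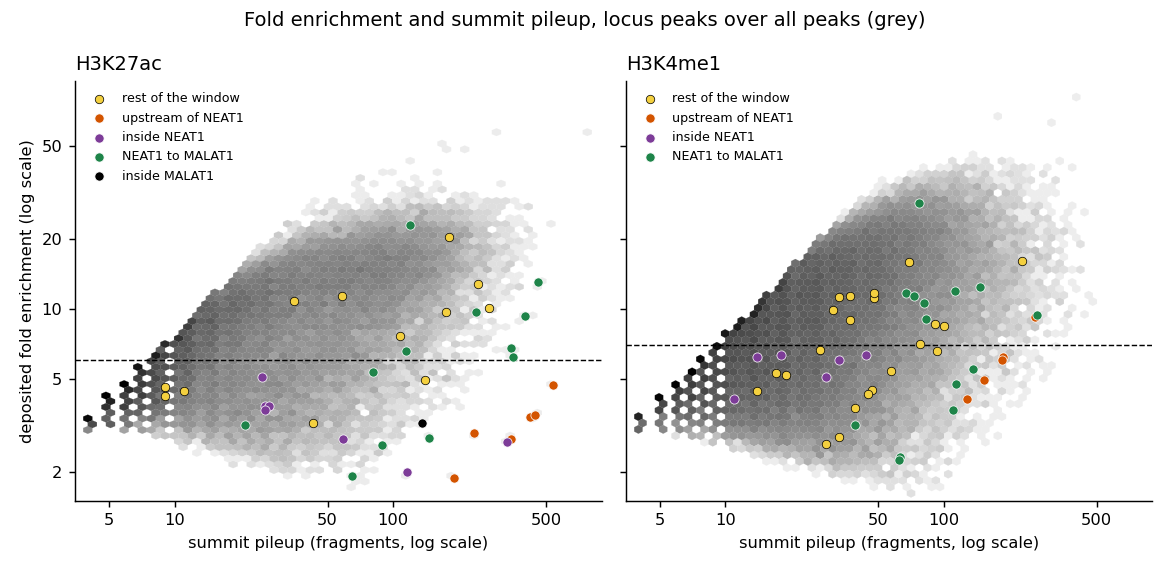
Deposited fold enrichment against summit pileup (both log scales) for all peaks of each list (grey, darker where more peaks lie) and for the locus peaks, coloured by place. The dashed line is the median fold of the list, 6.055 for H3K27ac (left) and 7.001 for H3K4me1 (right). Peaks upstream of NEAT1 lie at the right and below the line in the H3K27ac panel.

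The highest local backgrounds of the H3K27ac list lay in this locus. Of 11 peaks with a background of at least 50 fragments, 10 lay in the window, as did all 5 with at least 100. The remaining one lay at KDM6B on chromosome 17, with 52.84. At the lower limit of 20 fragments the window held 20 of 574. The H3K4me1 list did not share this, since none of its 18 peaks with a background of at least 50 lay in the window, and 11 of 965 with at least 20 did. The highest H3K4me1 background of the locus was 30.15, upstream of NEAT1. The background was compared with the summed pileup times width of the library's own peaks within 10 kb in all, the peak itself included. The rank correlation was 0.946 over the 38 H3K27ac peaks and 0.903 over the list. For H3K4me1 it was 0.971 over the 47 peaks and 0.935 over the list. No background library was among the samples, and a background taken from the same library's reads would give such a relation by its making. For the same summit pileup, a higher background gives a lower fold by its definition.

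The 2 marks overlapped at most peaks of the locus. An H3K4me1 peak shared at least 1 bp with 30 of the 38 H3K27ac peaks (78.9%, exact Clopper-Pearson 95% interval 62.7 to 90.4), beside 73.6% in the list. Weighted to the depths of the locus peaks, the share in the list was 94.98%. Of the 8 H3K27ac peaks without H3K4me1, 3 were the shallow ones in FRMD8, 2 stood at the NEAT1 start, 2 near its end and 1 in MALAT1. From the other side, 36 of 47 H3K4me1 peaks overlapped H3K27ac (76.6%, 62.0 to 87.7), beside 38.1% in the list and 68.95% after weighting to depth. Both intervals treat peaks as independent. Neighbouring peaks of 1 library are not, and some shared the same partner peak, so the intervals do not test the locus against the list. The 11 H3K4me1 peaks without H3K27ac held 11 to 110 fragments, with a median of 29.

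Where both marks met, H3K27ac was usually the deeper. Its summit pileup exceeded that of H3K4me1 in 26 of the 30 overlapping pairs, with a median ratio of 1.55, while over all 47665 pairs of the lists the median was 0.579 and 29.5% exceeded 1. Depth had entered the choice of the locus, and the pairs of the lists were not matched to its depth, so this contrast is a description. The ratio of 2 libraries also holds their sequencing depths, which are unknown, although the most frequent background was close, 0.447 fragments for H3K27ac and 0.453 for H3K4me1. Within the locus the ratio varied, and no intervals were computed for it. Upstream of NEAT1 it was 0.889, 1.02, 2.93, 2.75 and 3.5 in order towards the start, and inside NEAT1 2.61, 1.79, 1.79, 1.44 and 1.5. The ratios of 1.44 and 1.5 share 1 H3K4me1 peak of 18 fragments, and the 1.79 before them rests on 14. The ratio was 2.74 at the MALAT1 start and 4.09 at ENEMAL, and highest, 5.73, at the second peak beyond MALAT1. The lowest was 0.43, in SLC25A45.

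**Figure D4:**
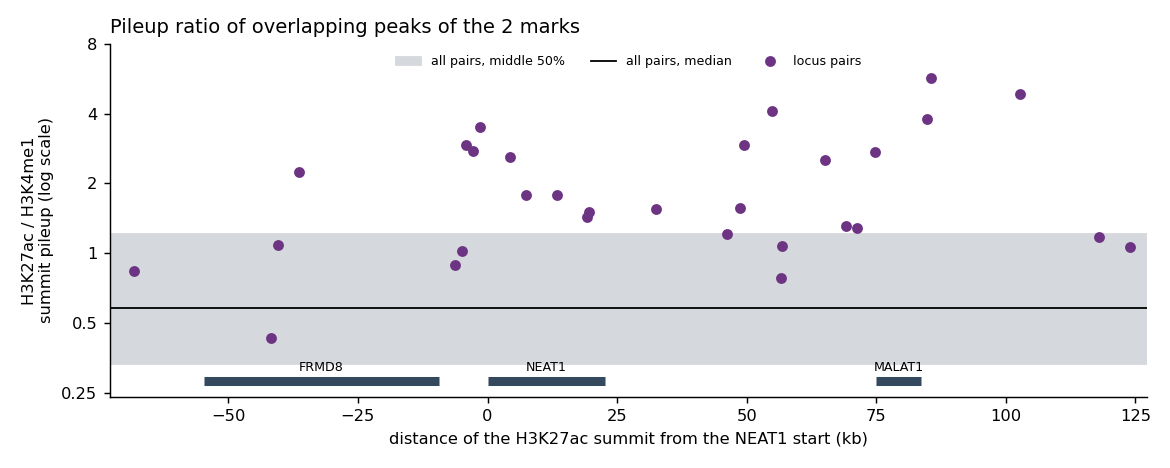
Ratio of H3K27ac to H3K4me1 summit pileup (log scale) for the 30 overlapping pairs of the locus (points) against the distance of the H3K27ac summit from the NEAT1 start in kb. The line is the median of all 47665 pairs, 0.579, and the grey band their middle 50%, from 0.333 to 1.21. Most locus pairs lie above the band.

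Summits of the 2 marks coincided closely. Their median distance was 13 bp over the 30 pairs and 33 bp over all pairs, and it was at most 20 bp in 18 of the 30 (60.0%), beside 39.0% of all. All pairs were not matched to the depth of the locus pairs. At the MALAT1 start the summits were 6 bp apart, at ENEMAL 13 bp, and at LINC02736 the same base. Signal that both libraries share for a reason other than the marks was not tested, since no background library was among the samples.

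Stitching turned the locus into 2 super-enhancer-like regions, and their rank depended on which value was summed. After peaks inside the 2.5 kb around protein-coding gene ends had been left out, H3K27ac peaks were joined over gaps of up to 12500 bp and ranked by the sum of fold times length, which called 1326 of 25235 regions genome-wide. The region over ENEMAL, LINC02736, MALAT1 and TALAM1 (65468958 to 65508591, 39.63 kb) joined 13 H3K27ac peaks and held 16 H3K4me1 peaks, at rank 15. The region over NEAT1 and the FAUP4 start (65416472 to 65455537, 39.07 kb) joined 15 and held 12, at rank 128. With pileup in place of fold they were at ranks 1 and 4, and with all peaks kept, coding gene ends included, the regions over them were at ranks 114 and 630 of 30496, both called. Only coding genes' ends were left out in this procedure, so the starts of the noncoding genes counted in full. When the ends of all genes were left out, no region of the window was called, and what remained around NEAT1 (65416472 to 65442092) was at rank 2180 of 22831.

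**Figure D5:**
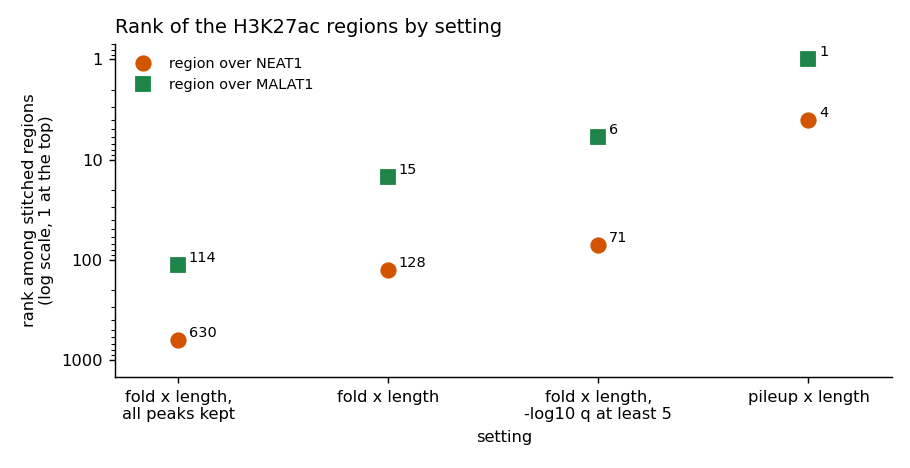
Rank of the stitched H3K27ac regions over NEAT1 (circles) and MALAT1 (squares), on a log scale with rank 1 at the top, by setting: fold times length with all peaks kept, with coding gene ends left out, the latter with peaks of -log10 q of at least 5, and pileup times length with coding gene ends left out. Both regions rank higher by pileup (1 and 4) than by fold (15 and 128), and lowest of these 4 settings with all peaks kept (114 and 630).

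Covered length set NEAT1 further apart from other genes than MALAT1. Among 30531 genes of at least 5 kb, 770 had a larger share of their length under H3K27ac peaks than NEAT1, 3295 than MALAT1 and 3497 than FRMD8, where the median gene had 0.637%. For H3K4me1 the numbers were 1855, 10886 and 5827, with a median gene of 1.00%. Likeness was measured over the 2 libraries, as the distance between genes in the percent covered by each mark. The 5 genes nearest to MALAT1 were SMURF2P1, GGA1, AP3D1, WDR46 and COX14, at distances of 0.0368 to 0.0784 percentage points. Those nearest to NEAT1 were NME1-NME2, PLXNB3, ARPC5L, ILK and SEMA4C, at 0.1 to 0.327 points.

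Genes for the proteins that gather on these RNAs carried both marks in the lists as deposited. All 30 listed genes of paraspeckle and nuclear speckle proteins had H3K27ac and H3K4me1 within 1 kb of an end, beside 62.3% of protein-coding genes with H3K27ac there and 58.9% with both marks. The list was chosen with earlier results of these data known, and the protein-coding genes were not matched to it for expression. The contrast is therefore a description, and a link to MALAT1 or NEAT1 was not tested. With peaks of -log10 q of at least 5, H3K27ac was at 30 of the 30 and H3K4me1 at 28. The deepest H3K27ac summits were 411 fragments at SON, the scaffold of speckles, 341 at TARDBP, which encodes the RNA-binding protein TDP-43, and 333 at SRSF5, a splicing factor gene. The core paraspeckle genes NONO, SFPQ and PSPC1 had 55, 125 and 141. H3K4me1 had a median of 37 fragments against 134.5 for H3K27ac.

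Other long noncoding RNA genes were marked less uniformly. Of 27 listed besides MALAT1 and NEAT1, 19 had H3K27ac and 19 had H3K4me1 at an end, beside 26.4% and 32.6% of all long noncoding RNA genes, and 18 had both, beside 23.4%. OIP5-AS1, CYTOR, MEG3, HOTAIR, PCA3, PCGEM1 and ARLNC1 had neither mark there, and a start inside their listed span would be missed, as at FRMD8. The deepest H3K27ac summits of the list were 400 fragments at MALAT1, 345 at NEAT1 and 335 at SNHG15, a small nucleolar RNA host gene. NEAT1 and H19 were the 2 members with H3K27ac (345 and 5 fragments) and no H3K4me1 peak within 1 kb of an end. For NEAT1 this rests on the limit of 1 kb, since an H3K4me1 peak of 127 fragments ended 1.35 kb before its start. LINC00844 had H3K4me1 alone (18 fragments), and SNHG15 had 44 H3K4me1 fragments.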

How the data were processed

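CUT&Tag peak lists, 1 per antibody, were used as deposited. Per the submitters' processing notes, the authors used BWA and MACS2 with hg38; versions, settings, duplicate removal and use of a background library are not given in the sources used here. The secondary antibody is labelled rabbit anti-mouse, and whether it changed the signal was not tested. The deposited fold is a ratio of summit signal to local background, the deposited -log10 p and -log10 q belong to the summit, and the deposited score follows from q. From fold = (k + 1) / (lambda + 1) and p = P(more than k), a Poisson chance, the pileup k and the background lambda were solved for each peak, within 0.001 in -log10 p or a relative 0.0001, which succeeded for 100% of peaks. The step was tested on simulated data. Total depth is unknown. Pileups are called fragments, but duplicates left in would make the intervals too narrow.

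Coordinates are GRCh38, 1-based; genes and promoters are from RefSeq (GRCh38.p14), matched by symbol, and a gene end stands for a start where no promoter was listed. Members and lists were chosen with earlier results of these data known. Genes named were MALAT1, NEAT1, FRMD8, genes overlapping the window, the 5 nearest in covered percent, and, of each list, the 3 deepest and those with neither mark; NONO, SFPQ, PSPC1, KDM6B, H19, LINC00844 and the cell type markers were named outside this rule, and some genes that the rule takes in are not reported here. Alternatives covered thresholds, overlap, windows and stitching. Python 3.11.15, NumPy 2.4.6, pandas 2.3.3 and SciPy 1.17.1 were used.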

Additional observations from a re-analysis of the deposited data

How the results depend on the processing

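Of 45 alternative values for 17 results, 38 stayed close to the main value, which means within its exact binomial interval for a percentage (bases covered, or peaks overlapping) and within 1.5 times for a count or rank. Neighbouring bases or peaks are not independent, so these intervals served only as limits for closeness and do not measure error. With a minimum -log10 q of 5, H3K27ac peaks covered 4.07% of FRMD8 in place of 5.43%, and H3K4me1 peaks 8.04% of NEAT1 in place of 8.79%; with at least 10 fragments the FRMD8 share was 4.47%. The H3K27ac rank of the window, 5 by covered length, was 1 by summed pileup and 3 with the tiling offset by 100 kb. The window held 2 super-enhancer-like regions, 6 with gaps of at most 5 kb, where the genome-wide number was 3945 and not 1326, and 0 with the ends of all genes left out. Ranking by pileup called 852 regions genome-wide, 3 of them in the window. No paired analysis was possible because there was 1 library per antibody. With 1 library each, counting error is the only error known, and peaks of 9 to 11 fragments, such as those along FRMD8, have intervals from 4.12 to 19.7.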
